A study of Mus musculus with 9 samples.

Results

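The 10 genes described here encode collagen chains that form no banded fibrils of their own: the collagen VI chains Col6a1, Col6a2 and Col6a3, the short-chain network collagens Col8a1, Col8a2 and Col10a1, the fibril-associated collagens (FACITs) Col12a1, Col14a1 and Col16a1, and the transmembrane collagen Col13a1. They were taken by gene symbol from the 43346 genes of the RNA-Seq table, and every symbol matched 1 row. The libraries came from lungs of male Col1a1-GFP transgenic mice on an FVB background, given as 18 months old in the protocol and 72 weeks old in the sample labels. Each mouse received 1 intratracheal dose of saline (aged sham, n = 4 libraries) or bleomycin (aged bleo, n = 5 libraries). Lung cells were sorted 30 days later for GFP and against CD45, CD31 and EpCAM. GFP in these mice is driven by the collagen I promoter, so only cells with an active reporter entered the libraries, and a difference in reporter activity could change which cells were sorted. The question of the comparison was how the fibroblasts of an aged lung differ after bleomycin, an injury that causes lung fibrosis. The young mice of the study were not analysed here.

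Collagen VI is assembled from α1, α2 and α3 chains into beaded microfilaments that lie around cells and connect to their receptors. Collagens VIII and X are short chains that form hexagonal networks, the former in vessel walls and under the corneal endothelium, the latter in the matrix of hypertrophic cartilage. Collagens XII, XIV and XVI sit on the surface of collagen I fibrils or between fibrils and other matrix, and collagen XIII is anchored in the plasma membrane at sites of cell adhesion. Col13a1 and Col14a1 are used as markers of different matrix fibroblast populations in mouse lung.

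The library totals ranged from 49921946 to 68260600 counts, and 3 counts, the limit that a count of 0 allows, corresponded to 0.0439 to 0.0601 CPM. The 7 fibroblast identity genes, among them Pdgfra, Col1a1 and Col3a1, summed to between 24741 and 30478 CPM in aged sham and to between 54928 and 72365 CPM in aged bleo. Within that sum, Dcn fell from a mean of 8122 to 2795 CPM. The rise of the sum was carried by Col1a1 (mean 4154 to 20853 CPM), Col1a2 (5463 to 16472 CPM) and Col3a1 (7910 to 23902 CPM). Markers of the cells removed by the sort were lower but not at 0 in all libraries: the 5 pan-leukocyte genes summed to between 89.4 and 333 CPM in aged sham and to between 90.9 and 508 CPM in aged bleo, the 6 endothelial genes to between 164 and 202 CPM and between 26.6 and 70.9 CPM, and the 6 epithelial genes to between 7.82 and 93.3 CPM and between 14.5 and 57.9 CPM. Most of the endothelial sum in aged sham, and its difference between the groups, was Tek (149 to 179 CPM and 9.51 to 55.7 CPM), and the other 5 endothelial genes summed to between 14.9 and 22.8 CPM in aged sham and between 14.2 and 22.8 CPM in aged bleo. The summed level of 6 macrophage genes did not overlap between the groups, at 130 to 245 CPM in aged sham against 434 to 1376 CPM in aged bleo, and 4 of the 6 were called higher. Aged sham 4 and aged bleo 4 held the highest pan-leukocyte level of their groups. Without these libraries, all 10 collagen genes were still called in the same directions, and the part of macrophage RNA in their differences was not tested.

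Promoter sequences are shown for the gene with the largest change, Col10a1, for the partner chains of collagen VIII, and for the collagen VI chains that moved together, Col6a1 and Col6a2. Each is the RefSeq window (GRCm38.p6) of 300 bases around the start site, most of them upstream, printed 5′ to 3′ on the gene's strand, with matches to 6 searched motifs in capitals. RefSeq windows were matched for 8 of the 10 genes, those other than Col12a1 and Col14a1. All motifs were searched on both strands. They were the TATA box as TATAAA, the CCAAT box by the letters in its name, the GC box as GGGCGG, an AP-1 site as TGAGTCA, a SMAD-binding site as CAGACA and a RUNX site as TGTGGT. Some GC box matches overlap each other.
Col10a1 promoter, chr10:34389731-34390030, forward strand: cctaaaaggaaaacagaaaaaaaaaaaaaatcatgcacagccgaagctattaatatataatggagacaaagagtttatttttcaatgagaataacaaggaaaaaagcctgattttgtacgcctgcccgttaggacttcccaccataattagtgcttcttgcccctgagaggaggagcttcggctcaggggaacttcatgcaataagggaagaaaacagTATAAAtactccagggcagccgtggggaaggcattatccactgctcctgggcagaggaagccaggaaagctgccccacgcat
Col8a1 promoter, chr16:57754688-57754987, reverse strand: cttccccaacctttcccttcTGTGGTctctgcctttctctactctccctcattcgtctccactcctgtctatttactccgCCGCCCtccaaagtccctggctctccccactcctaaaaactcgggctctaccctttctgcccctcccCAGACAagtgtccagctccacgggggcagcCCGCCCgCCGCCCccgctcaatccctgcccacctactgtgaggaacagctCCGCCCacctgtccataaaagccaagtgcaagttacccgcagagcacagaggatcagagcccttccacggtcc
Col8a2 promoter, chr4:126286544-126286843, forward strand: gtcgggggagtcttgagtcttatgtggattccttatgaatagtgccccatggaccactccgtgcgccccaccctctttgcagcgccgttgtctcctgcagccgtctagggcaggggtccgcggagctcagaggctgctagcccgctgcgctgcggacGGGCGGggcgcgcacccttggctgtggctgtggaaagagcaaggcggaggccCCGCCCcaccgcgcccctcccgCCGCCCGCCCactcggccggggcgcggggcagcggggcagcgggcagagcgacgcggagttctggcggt
Col6a1 promoter, chr10:76725995-76726294, reverse strand: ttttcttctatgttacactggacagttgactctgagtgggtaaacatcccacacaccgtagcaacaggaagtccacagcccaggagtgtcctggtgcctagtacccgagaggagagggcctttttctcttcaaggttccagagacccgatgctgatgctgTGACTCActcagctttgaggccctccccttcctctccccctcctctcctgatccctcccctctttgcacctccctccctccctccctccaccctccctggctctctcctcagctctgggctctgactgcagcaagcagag
Col6a2 promoter, chr10:76623355-76623654, reverse strand: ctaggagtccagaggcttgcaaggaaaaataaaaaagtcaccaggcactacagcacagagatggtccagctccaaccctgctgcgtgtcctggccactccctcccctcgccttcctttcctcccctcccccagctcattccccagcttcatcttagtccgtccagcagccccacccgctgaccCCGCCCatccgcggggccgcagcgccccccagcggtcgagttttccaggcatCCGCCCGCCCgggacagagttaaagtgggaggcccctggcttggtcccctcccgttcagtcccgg

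The Col10a1 window had a GC content of 44.3% and 6 CpG dinucleotides, and its TATAAA match lay at -32 to -27, counting the start site as position 0. The windows of the collagen VIII partners were richer in GC, at 60.3% for Col8a1 and 71.7% for Col8a2, and each held 4 GC box matches. Col8a1 also held CAGACA at -103 to -98 and TGTGGT at -230 to -225. The Col6a1 window (57.3% GC, 3 CpG) held 1 AP-1 match at -90 to -84, whereas the Col6a2 window (64.3% GC, 16 CpG) held 3 GC box matches and no AP-1 match. A second RefSeq window of Col6a2, chr10:76623581-76623880, is not printed. It had 56.7% GC and 6 CpG, closer to Col6a1, and held 1 GC box match and no AP-1 match. Thus the pair of collagen VI genes with the most similar levels shared none of the 6 motifs in these windows. Over 32544 mouse promoter windows of the same length, the median GC content was 53% and the median number of CpG was 7, and 13.6% held TATAAA, 37.4% CCAAT, 35.9% GGGCGG, 5.19% TGAGTCA, 20.9% CAGACA and 16.7% TGTGGT. A match is a stretch of letters and not a measured binding site.

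All 10 genes passed the filter of an average of at least 25 counts. In aged bleo against aged sham, 9 of the 10 were higher and 1, Col14a1, was lower, by edgeR's quasi-likelihood test with thresholds of 0.10 for the FDR and 1.5 for the fold change. Over all 16877 genes tested, 23.8% were called in either direction, 12.3% higher and 11.5% lower. For 8 of the 10 every aged bleo library was above every aged sham library, and for Col14a1 every one was below, where 16.1% of all genes tested were separated upward and 16.1% downward. Col13a1 was the gene whose groups overlapped. The median log2 fold change of the 10 was 1.74, with a range from -1.30 to 6.72, against a median of 0.01 over all genes tested. In bulk libraries such as these, fewer cells of a type and less RNA per cell cannot be told apart.

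**Figure D1:**
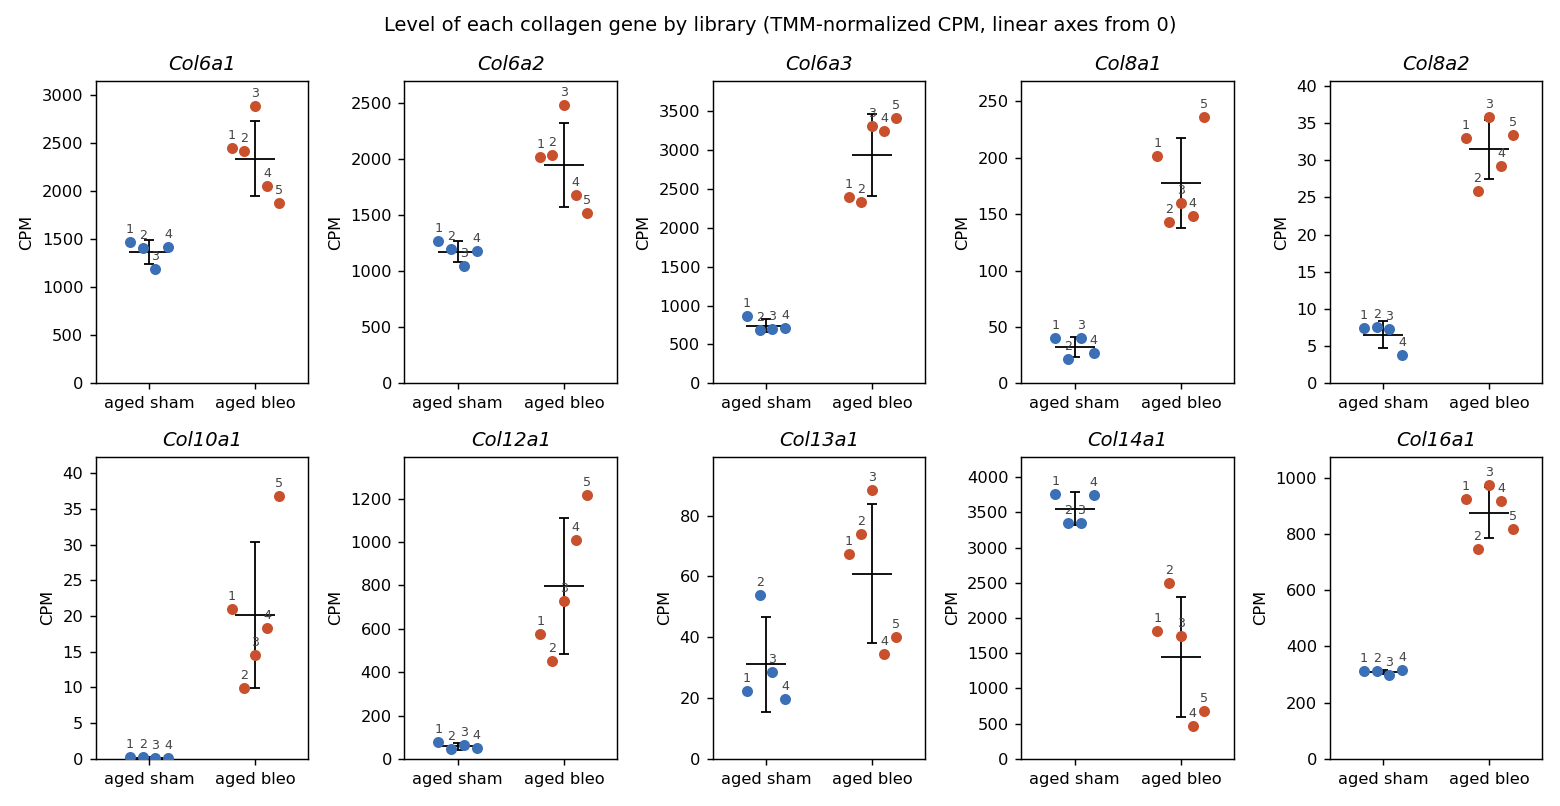
Level of each of the 10 collagen genes in the 4 aged sham (blue) and 5 aged bleo (orange) libraries, as TMM-normalized CPM on linear axes that start at 0. Points are libraries with their replicate numbers, and the bars are the mean ± SD. Col14a1 is the gene whose aged bleo libraries all lie below aged sham, Col13a1 is the gene whose groups overlap, and the other 8 lie higher in every aged bleo library.

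Among the collagen VI chains, Col6a1 (ENSMUSG00000001119, chr10:76708792-76726168, reverse strand, up to 35 exons) encodes the α1 chain. It was at 1463, 1401, 1185 and 1418 CPM in aged sham 1 to 4 and at 2444, 2411, 2885, 2055 and 1872 CPM in aged bleo 1 to 5. The groups did not overlap, and the lowest aged bleo value belonged to aged bleo 5. The mean rose from 1367 ± 124 CPM (SD, n = 4) to 2334 ± 392 CPM (SD, n = 5), with a log2 fold change of 0.77 (standard error 0.15, FDR 0.00485).

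Col6a2 (ENSMUSG00000020241, chr10:76595762-76623630, reverse strand, up to 28 exons), the α2 chain, lies near Col6a1 on the same strand of chromosome 10. Its levels were 1273, 1199.9, 1049 and 1181 CPM in aged sham and 2022, 2039, 2483, 1682 and 1518 CPM in aged bleo. The libraries fell in nearly the order seen for Col6a1, with aged bleo 3 highest and aged bleo 5 lowest of their group in both. Its log2 fold change was 0.73 (standard error 0.15, FDR 0.00743).

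Col6a3 (ENSMUSG00000048126, chr1:90765923-90843971, reverse strand, up to 44 exons) encodes the longest collagen VI chain, whose C-terminal fragment is known as endotrophin. It measured 869, 688, 701 and 713 CPM in aged sham, and 2404, 2336, 3308, 3253 and 3414 CPM in aged bleo. Unlike the other collagen VI chains, it was highest in aged bleo 5. Its mean increased from 743 ± 84.8 CPM (SD, n = 4) to 2943 ± 527 CPM (SD, n = 5), and the log2 fold change was 1.99 (standard error 0.17, FDR 7.22e-05).

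The balance of the collagen VI transcripts was compared as ratios of FPKM, which are scaled to gene length, within each library. The ratio of Col6a3 to Col6a1 was 0.218, 0.180, 0.217 and 0.184 in aged sham and 0.360, 0.355, 0.420, 0.580 and 0.668 in aged bleo, without overlap. On the log2 scale it rose by 1.21, with a 95% interval from 0.71 to 1.86 obtained by inverting the permutation test (two-sided exact permutation p = 0.00794, adjusted p = 0.0127 over 8 ratios). A p of 0.00794 is the smallest that 4 against 5 libraries allow.

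In contrast, the ratio of Col6a2 to Col6a1 stayed between 0.438 and 0.466 in aged sham and between 0.427 and 0.453 in aged bleo. The difference in log2 ratio was -0.05, with a 95% interval from -0.11 to 0.01 (two-sided exact permutation, p = 0.0952, adjusted p = 0.109). That interval leaves room for a shift of at most 0.11 on the log2 scale. The level of this ratio depends on the length used, because the table gives Col6a2 8326 bases and its transcript with the longest coding sequence has 3949. Per kilobase of that transcript, the ratio was 0.865 to 0.919 in aged sham and 0.842 to 0.893 in aged bleo, and that of Col6a3 to Col6a1 was 0.199 to 0.241 and 0.393 to 0.740. The comparison between groups does not depend on the length, which is the same in every library.

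Among the network collagens, Col8a1 (ENSMUSG00000068196, chr16:57624258-57754737, reverse strand, up to 4 exons), the α1 chain of collagen VIII, was at 39.7, 21.8, 39.7 and 27.1 CPM in aged sham. In aged bleo it was at 202, 143, 159.9, 148 and 236 CPM. Every aged bleo library was above every aged sham library, and the mean went from 32.1 ± 9.09 CPM (SD, n = 4) to 178 ± 39.9 CPM (SD, n = 5). This is a log2 fold change of 2.47 (standard error 0.23, FDR 1.42e-04).

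Col8a2 (ENSMUSG00000056174, chr4:126286793-126314330, forward strand, up to 4 exons), the partner chain, was less abundant. It was at 7.37, 7.55, 7.32 and 3.85 CPM in aged sham and at 33.0, 25.8, 35.8, 29.2 and 33.4 CPM in aged bleo. Aged sham 4 stood below the other aged sham libraries, and the groups were well apart with and without it. The log2 fold change of 2.27 (standard error 0.20, FDR 1.08e-04) was close to that of Col8a1. The FPKM ratio of Col8a2 to Col8a1 was 0.162 to 0.394 in aged sham and 0.161 to 0.255 in aged bleo. Its log2 difference was -0.18, and the 95% interval from -0.94 to 0.37 (two-sided exact permutation, p = 0.619, adjusted p = 0.619) did not exclude a shift in either direction.

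Col10a1 (ENSMUSG00000039462, chr10:34389981-34397085, forward strand, up to 3 exons) encodes collagen X, the collagen of hypertrophic chondrocytes. It had 14, 14, 8 and 6 counts in aged sham and 1125, 561, 780, 1339 and 2009 counts in aged bleo. As CPM these were 0.226, 0.240, 0.156 and 0.121, against 20.9, 9.97, 14.6, 18.3 and 36.8. The aged sham counts were above the floor of 3 counts in every library but low, and aged bleo 5 held the highest and aged bleo 2 the lowest value of the injured group.

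The log2 fold change of Col10a1 was 6.72 (standard error 0.48, FDR 3.23e-05), the 12th highest among the 16877 genes tested. Because the aged sham level is so low, the size depends on the scale: it was 4.39 on log2(FPKM + 0.1) and 1.80 on log2(FPKM + 1), and the gene was called on both. Col10a1 lies within Nt5dc1, a gene on the opposite strand with which it shares 18 exonic bases, and the library kit does not mark strand. Nt5dc1 was at a mean of 14.6 CPM in aged sham, and its mean in aged bleo was 13.2 CPM. The other collagen genes described here share no exonic bases with another annotated gene.

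Among the FACITs, Col12a1 (ENSMUSG00000032332, chr9:79598991-79718831, reverse strand, up to 66 exons) encodes collagen XII, a fibril-surface collagen of tendon, ligament and other load-bearing matrix. It was at 79.2, 44.2, 62.7 and 48.6 CPM in aged sham and at 575, 451, 729, 1008 and 1216 CPM in aged bleo. The lowest aged bleo library was thus well above the highest aged sham library, and the injured libraries differed among themselves by up to 2.70 times. The log2 fold change was 3.76 (standard error 0.34, FDR 1.14e-04), the second largest of the 10 after Col10a1.

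Col14a1 (ENSMUSG00000022371, chr15:55307750-55520803, forward strand, up to 48 exons) encodes collagen XIV, the FACIT most similar to collagen XII in build. It was at 3768, 3353, 3349 and 3752 CPM in aged sham, a spread of 6.64% of the mean (coefficient of variation). In aged bleo it was at 1819, 2502, 1750.3, 464 and 673 CPM, a spread of 59.1%. All aged bleo libraries were below aged sham, and aged bleo 4 and 5 were far below the other 3. The mean went from 3556 ± 236 CPM (SD, n = 4) to 1441 ± 853 CPM (SD, n = 5), with a log2 fold change of -1.30 (standard error 0.44, FDR 0.0444). Leaving out single libraries gave log2 fold changes between -1.60 and -1.08, all called.

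The FPKM ratio of Col14a1 to Col12a1 brought this opposite movement together. It was 103, 165, 116 and 168 in aged sham, and 6.87, 12.1, 5.21, 0.999 and 1.202 in aged bleo. In aged bleo 4 and 5 the transcripts of both FACITs were therefore at nearly equal levels per length. The log2 ratio fell by 5.27, with a 95% interval from -7.39 to -3.27 (two-sided exact permutation, p = 0.00794, adjusted p = 0.0127). Both genes already separated the groups, in opposite directions. Their ratio therefore had to separate them too, and its p-value adds no support beyond the results of the single genes.

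Col16a1 (ENSMUSG00000040690, chr4:130047840-130099283, forward strand, up to 70 exons) encodes collagen XVI, a minor FACIT found with fibrils and with microfibrils. Its levels were the most uniform of the 10, at 311, 311, 297 and 316 CPM in aged sham and 923, 746, 973, 916 and 818 CPM in aged bleo. The coefficients of variation were 2.69% and 10.4%, and the groups did not overlap. Its log2 fold change was 1.502, with the smallest standard error (0.10) and the lowest FDR (2.32e-05) of the 10 genes.

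The gene of the membrane-anchored collagen XIII, Col13a1 (ENSMUSG00000058806, chr10:61838236-61979108, reverse strand, up to 41 exons), was at 22.4, 54.0, 28.7 and 19.6 CPM in aged sham and at 67.2, 73.9, 88.4, 34.6 and 40.0 CPM in aged bleo. Aged sham 2 was above aged bleo 4 and 5, so the groups overlapped. For the difference, the log2 fold change was 0.96 (standard error 0.37, FDR 0.0675). This call did not hold when any one of 6 libraries was left out (aged sham 1, 3 or 4, or aged bleo 1, 2 or 3), with FDR values from 0.104 to 0.158 and log2 fold changes from 0.79 to 0.93. Without aged sham 2 the log2 fold change was 1.37.

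The ratio of Col13a1 to Col14a1, the markers of different matrix fibroblast populations, was 0.00903, 0.0245, 0.0130 and 0.00797 in aged sham and 0.0563, 0.0450, 0.0769, 0.114 and 0.0906 in aged bleo. These did not overlap, although the Col13a1 levels did. The log2 ratio rose by 2.56 (95% interval 1.49 to 3.54, two-sided exact permutation, p = 0.00794, adjusted p = 0.0127). Col14a1 alone already separated the groups, so this p-value is not separate support for a change of Col13a1. Aged bleo 4 and 5, with the lowest levels of both genes in their group, had the highest ratios.

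**Figure D2:**
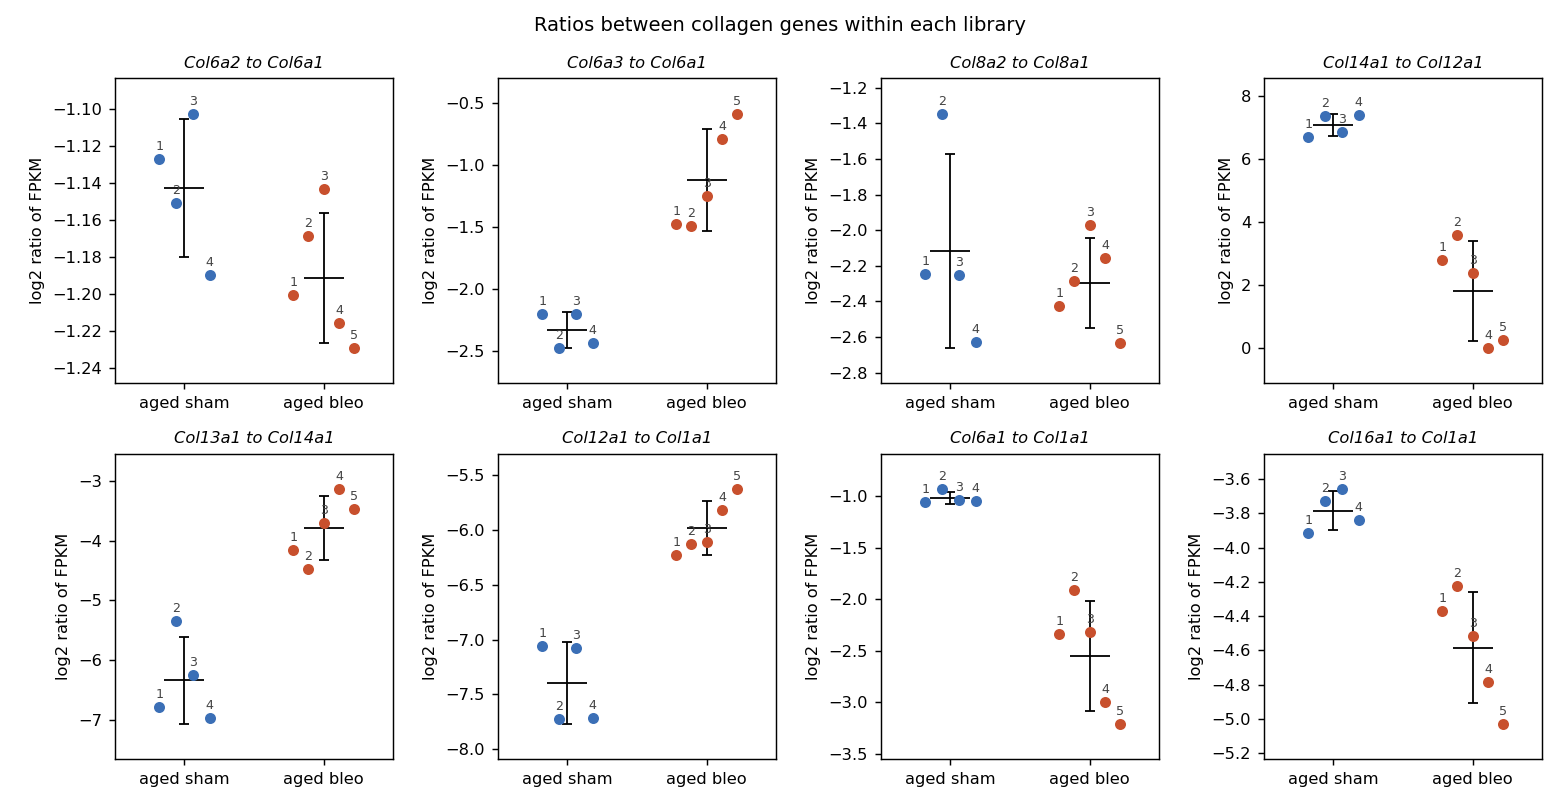
Log2 ratios of FPKM between collagen genes within each library, 8 ratios, for aged sham (blue, n = 4) and aged bleo (orange, n = 5). Points are libraries with replicate numbers, bars are the mean ± SD, and the axes differ between panels. Col6a2 to Col6a1 and Col8a2 to Col8a1 overlap between groups, and the other 6 ratios are separated, most widely Col14a1 to Col12a1.

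Aged bleo 4 and 5 stood apart in the fibroblast markers too. The 6 adventitial fibroblast markers (among them Pi16, Dpp4 and Clec3b) summed to between 6357 and 7607 CPM in aged sham, to 3233, 3380 and 2625 CPM in aged bleo 1 to 3, and to 1119 and 1147 CPM in aged bleo 4 and 5. All 6 were called lower, with a median log2 fold change of -1.59, and, as for Col14a1, aged bleo 4 and 5 were the lowest libraries. Of the 7 alveolar fibroblast markers 1 was called higher and 3 lower (median -0.39), and their sum was also lowest in aged bleo 4 and 5, at 1041 and 1374 CPM. Of the 6 markers of fibrotic fibroblasts 5 were called higher and 1 lower (median 4.04), and they summed to 348 to 578 CPM in aged sham and to 6896, 4701, 6736, 8487 and 9458 CPM in aged bleo. The order of the aged bleo libraries in Col12a1 was close to that in the fibrotic markers, with aged bleo 5 and 4 highest and aged bleo 2 lowest in both. The summed macrophage genes were also highest in aged bleo 4 and 5, at 1376 and 795 CPM. In aged bleo 1 to 3 they were at 434, 645 and 505 CPM. The part of these fibroblast and macrophage populations in the collagen levels was not tested.

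After the group means were taken out of log2 CPM, Col6a1 and Col6a2 varied together over the 9 libraries (Pearson r = 0.99). Among the 16877 genes tested, each was the gene most like the other, and H2-M3 (0.96) and Fzd10 (0.95) followed for Col6a1. Col6a3 followed Col12a1 (0.88) instead, while Col12a1 ran opposite to Col14a1 (-0.77) and to Col13a1 (-0.66), and Col14a1 ran with Col6a2 (0.74). The Col14a1 deviations from the group mean were -0.08 to 0.09 in aged sham. In aged bleo they were 0.54 to 1.06 in libraries 1 to 3, and -1.37 and -0.83 in libraries 4 and 5. The correlations of Col14a1 thus rest mainly on the aged bleo libraries. Over the 45 pairs of the 10 genes, 25 correlations were positive and 20 negative, with a median of 0.14. The genes most like Col12a1 were Entpd7 (0.98), Prr11 (0.97) and Galnt7 (0.97), those most like Col10a1 were Tax1bp3 (0.97), Sec14l2 (0.96) and Six4 (0.96), and those most like Col13a1 were Sept4, Gpr4 and Gm14493 (all 0.98). Col14a1 was most like 1700018L02Rik, Sulf2 and Prrg3 (all 1.00 after rounding). These correlations describe 9 libraries that share their preparation and normalization, and the nearest genes were picked out of all 16877.

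The nearest genes of the remaining members were Irgm1 (0.97), Zbp1 (0.96) and I830012O16Rik (0.95) for Col6a3, and RP24-229G16.1 (0.94), Eif5a2 (0.92) and 9530027J09Rik (0.92) for Col8a1. For Col8a2 they were Tulp3 (0.95), Ppme1 (0.94) and Mta1 (0.94), and for Col16a1 they were Sppl3 (0.95), Angptl7 (0.91) and Pigt (0.91). Among the injured libraries, aged bleo 3 held the highest level of 5 of the 10 collagen genes and aged bleo 5 of 4, while aged bleo 2 held the lowest level of 6.

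Levels of different genes were compared as FPKM. In aged sham the order was Col14a1 (213 ± 11.3, SD, n = 4), Col6a1 (131 ± 11.2), Col6a2 (59.2 ± 4.57), Col6a3 (26.05 ± 2.92), Col16a1 (19.2 ± 0.412), Col13a1 (2.85 ± 1.47), Col8a1 (2.64 ± 0.753), Col12a1 (1.62 ± 0.436), Col8a2 (0.611 ± 0.173) and Col10a1 (0.0249 ± 0.00782). The neighbours whose ranges overlapped were Col13a1 with Col8a1 and Col8a1 with Col12a1. In aged bleo the order was Col6a1 (229 ± 33.6, SD, n = 5), Col6a3 (106 ± 20.0), Col6a2 (100.4 ± 17.0), Col14a1 (87.4 ± 50.5), Col16a1 (55.8 ± 6.25), Col12a1 (22.6 ± 9.27), Col8a1 (14.97 ± 3.44), Col13a1 (5.64 ± 1.99), Col8a2 (3.01 ± 0.368) and Col10a1 (2.77 ± 1.43). There the neighbours from the second to the fifth gene overlapped in their ranges, as did those of Col12a1 with Col8a1 and Col8a2 with Col10a1. Counted per kilobase of the transcript with the longest coding sequence, Col6a2 came 2nd and Col6a3 3rd in aged bleo.

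Col14a1 thus made up 46.7 ± 1.45% (SD, n = 4) of the summed FPKM of the 10 genes in aged sham and 13.5 ± 7.27% (SD, n = 5) in aged bleo. The 3 collagen VI chains together made up 47.4 ± 1.43% and 69.5 ± 4.10%, Col16a1 4.22 ± 0.195% and 8.98 ± 1.35%, and Col12a1 0.354 ± 0.0889% and 3.75 ± 1.92%. Shares of one sum are not independent, so a fall in Col14a1 raises the shares of the others. The FPKM values scale Col6a2 to 8326 bases, where its transcript with the longest coding sequence has 3949. The size of these shares, and of the share of all collagen FPKM below, therefore depends on the length used. The sum itself was 456 ± 26.5 FPKM (422 to 487) in aged sham and 627 ± 71.6 FPKM (548 to 725) in aged bleo.

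**Figure D3:**
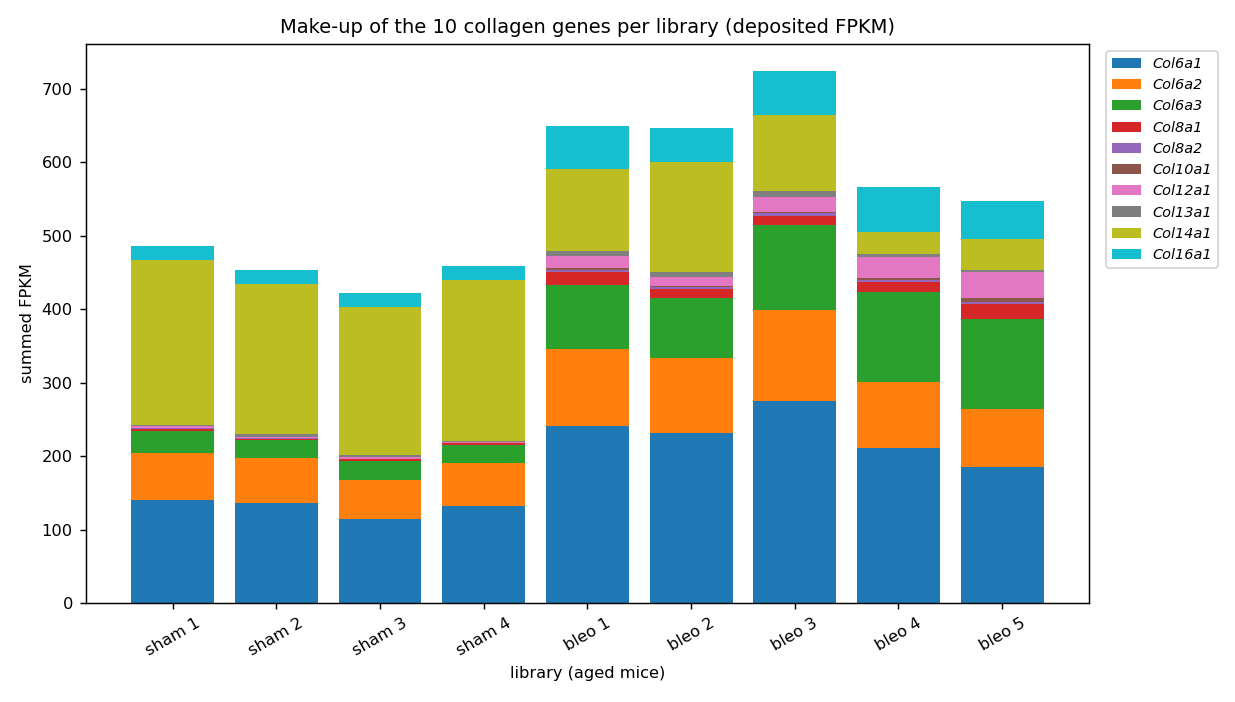
FPKM of the 10 collagen genes stacked per library, aged sham 1 to 4 and aged bleo 1 to 5, on a linear axis from 0. Col14a1 and the collagen VI chains fill most of each aged sham bar, and in aged bleo the Col14a1 segment is smaller, smallest in aged bleo 4 and 5, while the Col6a3, Col16a1 and Col12a1 segments are larger.

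Although 9 of the 10 genes were higher, together they became a smaller share of the collagen transcripts. Of the summed FPKM of 44 collagen genes, they held 30.1%, 31.2%, 30.7% and 29.1% in aged sham and 14.9%, 18.6%, 15.6%, 12.6% and 11.6% in aged bleo. The groups did not overlap, and the share differed by -15.6 percentage points (two-sided exact permutation, p = 0.00794). Col14a1, the lower gene, held on average 46.7% of the summed FPKM of the 10 genes in aged sham and 13.5% in aged bleo. Its fall is thus part of this difference, and the share of the 9 higher genes alone was not computed. The 10 fibrillar collagens tested were called higher in 9 cases, with a median log2 fold change of 1.92. Col11a1 changed most among them, from 0.233 to 60.9 CPM.

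Against Col1a1, the main chain of collagen I, whose promoter also drives the reporter, the ratios went different ways. Col6a1 was at 0.481 to 0.523 of the Col1a1 FPKM in aged sham and at 0.108 to 0.266 in aged bleo, a log2 difference of -1.54 (95% interval -2.27 to -0.91, two-sided exact permutation, p = 0.00794, adjusted p = 0.0127). Col16a1 was at 0.0664 to 0.0791 and 0.0307 to 0.0535 of it, a difference of -0.80 (95% interval -1.25 to -0.39, two-sided exact permutation, p = 0.0159, adjusted p = 0.0212). Col12a1, in contrast, was at 0.00474 to 0.00748 and 0.0134 to 0.0202 of it, a difference of 1.41 (95% interval 0.91 to 1.99, two-sided exact permutation, p = 0.00794, adjusted p = 0.0127). Col12a1 thus rose by more than Col1a1 did, and Col6a1 and Col16a1 by less.

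**Figure D4:**
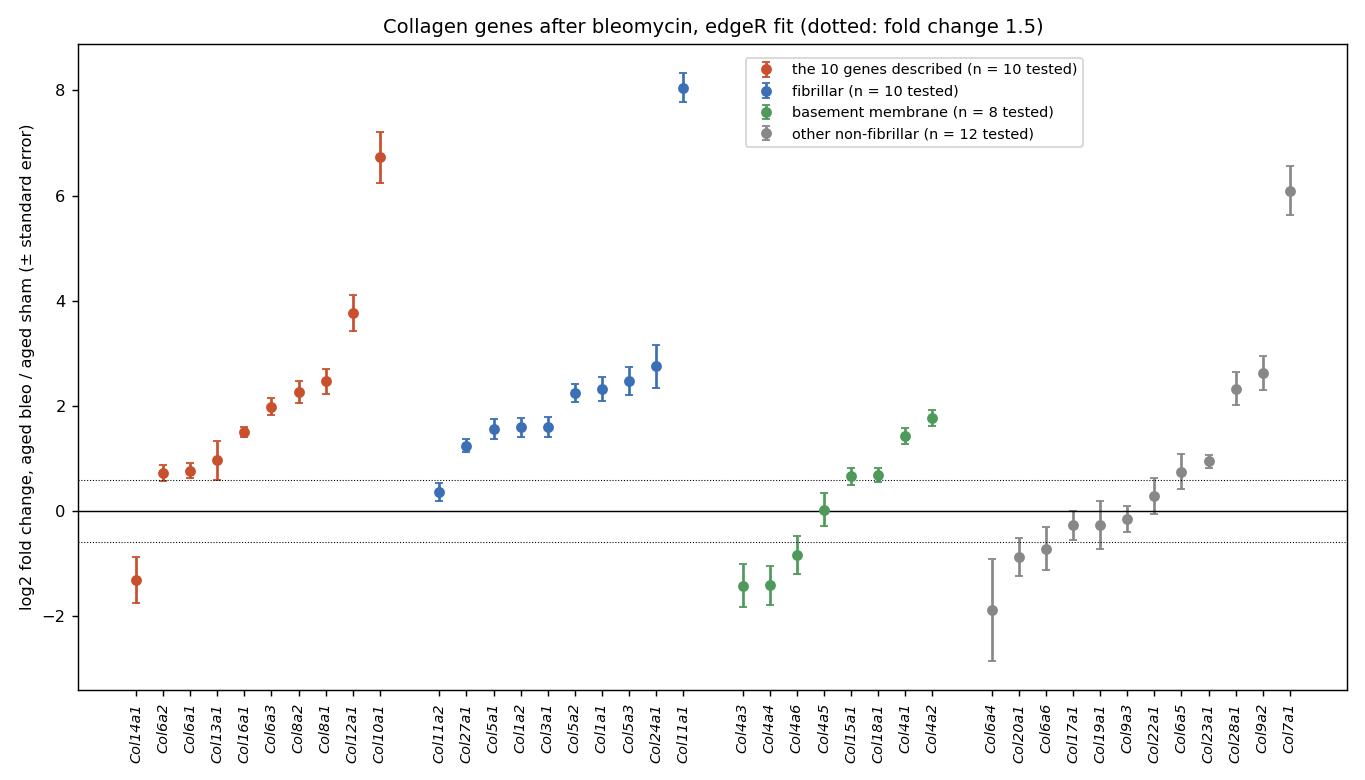
Log2 fold change (aged bleo over aged sham) ± standard error from the edgeR fit for the collagen genes tested: the 10 described here (orange), 10 fibrillar (blue), 8 basement membrane (green) and 12 other non-fibrillar collagens (grey), sorted within each set. Dotted lines mark a fold change of 1.5. The genes described here run from -1.30 (Col14a1) to 6.72 (Col10a1), fibrillar collagens lie above 0, and the other sets reach both sides.

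The remaining collagens were more mixed. Of 8 basement membrane collagens, 4 were called higher and 2 lower (median log2 fold change 0.35): Col4a2 (1.77) and Col4a1 (1.42) were higher, and Col4a3 (-1.42) and Col4a4 (-1.41) lower. Of the other 12 tested, 4 were higher and 1 was lower (median 0.07). Col7a1, the collagen of anchoring fibrils, went from 5.58 to 382 CPM (log2 fold change 6.10), and Col9a2 (2.63) and Col28a1 (2.33) were also higher. Of the further α chains of the collagen VI family, Col6a5 (mean 31.3 to 52.8 CPM, log2 fold change 0.75, FDR 0.102) was not called. Col6a6 (mean 59.0 to 35.9 CPM, -0.72, FDR 0.202) was not called either. Col6a4, another such chain, was also not called (-1.87, FDR 0.161) and was below 1 CPM on average in both groups. Its difference rested on aged sham 1, at 3.41 CPM, as the other aged sham libraries were at 0.103 to 0.262 CPM (mean 0.174) and aged bleo at 0.0889 to 0.366 CPM (mean 0.269), so that without aged sham 1 the mean was higher in aged bleo.

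Genes that work with these collagens were counted by role, in lists put together with earlier results of these data known. Of 9 collagen VI receptors and binding partners tested, 2 were higher and 3 lower (median 0.25). The proteoglycan gene Dcn went from 8122 ± 558 to 2795 ± 1249 CPM (log2 fold change -1.54, FDR 0.00667), Tgfbi, whose product binds collagen VI, changed by -1.47, and the receptor gene Antxr2 by -1.08. Matn3, a matrilin of cartilage, was between 0 and 0.0485 CPM in aged sham, against 2.83 to 5.91 CPM in aged bleo. Bgn, the gene of a further small proteoglycan that binds collagen VI, was the other higher gene, from 3830 ± 101 to 6141 ± 898 CPM (log2 fold change 0.68, FDR 0.00719). The partners of collagen VI were thus changed in both directions while Col6a1, Col6a2 and Col6a3 were higher.

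Among 6 tenascins and fibril surface proteins, the class of molecules that share the fibril surface with the FACITs, 3 were higher and 1 lower (median 2.21). Thbs4 (5.70) and Fmod (3.78) were higher with Tnc, and Tnxb, whose product tenascin-X binds collagen fibrils, fell by 1.65 on the log2 scale. Of 7 collagen-binding integrin and discoidin receptor genes, 2 were higher, Itga1 (1.49) and Itgb1 (0.85), and 2 lower, Itga11 (-1.05) and Ddr2 (-0.84), with a median of 0.39. Of 14 genes for collagen chain modification and folding, 7 were higher (median 0.58), with P4ha3 (4.95), Plod2 (1.35), Fkbp10 (1.27) and Lepre1 (1.19) the largest changes.

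Col10a1 is best known from cartilage, so genes of hypertrophic cartilage were counted beside it. Of 8 such genes, 5 were higher and 2 lower (median 1.87). Spp1 went from 8.77 to 2145 CPM, Ibsp from 0.233 to 39.5 CPM, Mmp13 from 0.122 to 12.0 CPM, and Runx2, a transcription factor of bone and hypertrophic cartilage, from 5.64 to 44.5 CPM (log2 fold change 2.98). Of the 6 genes that mark cartilage itself, only 2 passed the filter: Acan was higher (0.190 to 2.61 CPM, 3.78) and Sox9 lower (-1.04). Sox9, which is also 1 of the 2 lower genes of the hypertrophic list, made up nearly all of the level of these 6 in aged sham, and the other 5 summed to between 0.584 and 0.766 CPM in aged sham and between 2.09 and 5.19 CPM in aged bleo. The other lower gene of the hypertrophic list was Ihh (0.859 to 0.165 CPM, log2 fold change -2.37, FDR 0.00471). Spp1 is also among the markers of fibrotic fibroblasts counted above. Thus Col10a1 was higher in libraries in which Acan and Runx2 were higher, and Ihh and Sox9, a transcription factor required for cartilage, were lower. The cells from which the Col10a1 transcripts came were not tested.

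Among the markers of other cells, 1 of 5 pan-leukocyte genes and 1 of 4 Schwann cell genes were higher, of 6 endothelial genes 1 was higher and 1 lower (median log2 fold change -0.26), and of 5 smooth muscle and pericyte genes 1 was higher and 2 were lower (median -0.44). With edgeR, 0 of 6 neutrophil genes (170 to 1017 CPM in aged sham, 84.8 to 905 CPM in aged bleo), 0 of 3 T and NK cell genes, 0 of 6 epithelial genes and 0 of 4 mesothelial genes were called, and in each of these lists 0 genes had an unadjusted p under 0.05. DESeq2 called 1 epithelial and 1 mesothelial gene, and limma 0 in each of the 4 lists. Of the 7 fibroblast identity genes 4 were higher and 1 lower (median 0.66).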

How the data were processed

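The 4 aged sham and 5 aged bleo RNA-Seq libraries were grouped by their sample labels, and all were used. The authors prepared them from polyadenylated RNA with a kit that does not mark strand. The submitters' processing notes name STAR 2.5.2b, featureCounts of Subread, bcl2fastq, and the builds mm10 and GRCm38. Whether counting used strand is not given in the sources used here. The authors deposited whole-number read counts per gene, without normalization, and FPKM values, which are scaled per gene length and by library totals that exceed the summed counts 2.27 to 2.42 times. All 10 genes have the same coordinates in the GENCODE M21 annotation of GRCm38.

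Genes with an average of at least 25 counts were tested with edgeR 4.0.16 (quasi-likelihood, TMM, no covariate, R 4.3.3), with Benjamini-Hochberg adjustment over the 16877 genes tested (FDR). The study used a moderated test with the same filter and thresholds. CPM values are TMM-normalized. Log2 CPM uses a prior count of 2. Each standard error is the fold change divided by the root of its test statistic. Ratios and the share were tested on FPKM by two-sided exact permutation, with adjustment over the 8 ratios. No pseudocount was added, since no FPKM value in the ratios was 0. Replicates are libraries of separate labels, and where these were not separate mice the p-values measure the spread between libraries only. The 16 pairs of libraries of a group had chi-square values of 31.1 to 469 per degree of freedom, where sampling noise alone gives about 1, so none was counted as a duplicate. Counts of 0 and the floor cover counting error only. The members, the 8 pathway lists, and the 14 marker lists were chosen with earlier results of these data known. Named are all members, up to 4 genes of a list by largest change, and the 3 genes most like each member. A list gene named without a value, or named beyond that rule, was chosen after the values were seen. DESeq2 1.42.0, limma 3.58.1, other normalizations, filters and thresholds, each library left out, and a replicate block were alternatives. The code was tested on simulated counts.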

Additional observations from a re-analysis of the deposited data

Results flagged for a closer look

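In groups of 4 or 5 libraries, a value was picked out when its gap to the nearest library exceeded the critical share of the group's range (Dixon's test at 95%). Of 38 groups of values examined, 3 were picked out, all in aged sham, and chance picks out about 1 in 20 groups. Aged sham 1 had the highest Col6a3 level of its group, 869 CPM, with a gap of 0.864 of the range. Aged sham 4 had the lowest Col8a2 level, 3.85 CPM, with a gap of 0.940 of the range. Aged sham 2 had the highest log2 ratio of Col6a1 to Col1a1, -0.93, with a gap of 0.865 of the range. The causes were not tested.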

How the results depend on the processing

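Between 6 and 9 of the 10 genes were called higher and 1 lower under every alternative run. The 6 came with stricter thresholds (FDR 0.05, fold change 2), under which Col6a1 (0.77), Col6a2 (0.73) and Col13a1 (0.96) were no longer called. With at least 10 counts required in every library, Col10a1 was not tested and 8 were higher. Col13a1 was also no longer called without aged sham 1, 3 or 4 or aged bleo 1, 2 or 3. The 8 ratios and the share kept their direction and their side of the threshold under each alternative run, except that the ratio of Col8a2 to Col8a1, which did not pass, ranged from -0.35 to 0.08 with single libraries left out. The share differed by -16.9 to -12.1 percentage points. Without aged sham 4 and aged bleo 4, an alternative chosen after seeing the data, Col14a1 (-1.07, FDR 0.0654) and Col13a1 (0.92, FDR 0.0875) were still called by edgeR. The fit called 2082 genes higher and 1940 lower in all, against 960 and 825 on log2(FPKM + 1) and 1224 and 934 at the stricter thresholds. A low aged sham level limits how well the size of the Col10a1 change is known, and 9 libraries limit the precision of every ratio.

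The groups share replicate numbers, but the deviations of libraries with the same number correlated at 0.09, 0.06, -0.13 and 0.33 over 16877 genes, so the numbers were not taken as pairs, and not every aged sham library was most like the aged bleo library of its own number. With the replicate number as a block, 9 of the 10 genes were higher and 1 lower, and 1822 genes were higher and 1714 lower in all.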
